A study of Homo sapiens with 48 samples.

Results

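The 43 genes described here are interferon-stimulated genes, given as a list of symbols. The list was chosen with earlier results of these data known, so counts of its members describe it and are not an independent test. A gene was taken as measured when its brightest probe was detected (detection p under 0.01) on 3 or more of the 48 arrays, and 41 of the 43 were, among 11212 genes measured in all. TRIM22 was detected on 1 array and CMPK2 on 0, so neither is described further. OAS1 and DTX3L lay just inside the limit, with 3 arrays each.

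Interferons are secreted signals that bind receptors on the cell surface and, through JAK kinases and STAT and IRF transcription factors, switch on a shared set of antiviral genes. The products of these genes sense viral nucleic acid, block entry or translation, degrade RNA, or attach the ubiquitin-like protein ISG15 to other proteins. The factors bind a promoter element, the interferon-stimulated response element (ISRE), and IRF1, one of these factors, can drive such genes without interferon. RELA is a subunit of NF-kB, and TNFR1 is the main receptor of the cytokine TNF.

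RNA came from 2 established human breast cancer lines, EVSA-T and MDA-MB-231, on Illumina bead arrays with 1 array per sample. BV6 is a Smac mimetic, a compound that antagonizes the IAP proteins. Transfected MDA-MB-231 cells received siRNA against IRF1 (siIRF1), RELA (siRELA) or TNFR1 (siTNFR1) or a control siRNA (siCtrl), then 50 nM BV6 or no treatment for 9 h. These are 8 groups of 3 arrays. Transfected EVSA-T cells received siTNFR1 or siCtrl, then 5 nM BV6 or no treatment for 9 h. These are 4 groups of 2 arrays. The labels give 5 nM siRNA for 36 h, in a text that names only the control and TNFR1. Untransfected MDA-MB-231 cells were collected with 50 nM BV6 at 3, 6, 9, 12 and 15 h and untreated at 0, 9 and 15 h, with 2 arrays per group. Nothing in the labels says that replicates were separate cultures, so p-values measure the spread between these arrays, which may be technical.

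The arrays detected between 10167 and 13072 probes each, and the lowest correlation of a replicate pair, taken over genes, was 0.984. The siRNA arrays lay on slides 1 and 2, and slide 3 held the untransfected untreated arrays, those of BV6 at 3 h and the first replicates from 6 h on. Slide 4 held the second replicates from 6 h on and EVSA-T. The mean level of the mesenchymal marker list was 5.68 to 5.95 log2 on EVSA-T arrays and 11.3 to 11.8 on MDA-MB-231 arrays. That of the luminal list was 9.88 to 10.4 on EVSA-T arrays and 7.32 to 8.11 on MDA-MB-231 arrays. Silencing was visible in the targeted genes. IRF1 differed by -3.37 ± 0.25 log2 (standard error) between untreated siIRF1 and siCtrl cells and by -3.42 ± 0.25 with BV6. RELA was detected on no siRELA array and was at least 3.44-fold lower untreated and at least 5.33-fold lower with BV6. The fold of a gene that no array of a group detected is a bound here, taken against that group's own level or the lowest detected signal, whichever was higher.

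The promoter sequences show what many of these genes share. RefSeq promoters (GRCh38.p14, 250 bases before to 50 after the start) were found for 37 members, and the ISRE core, spelled GAAA, any 2 bases, GAAA and searched on both strands with overlaps allowed, was present in 26 of them (70.3%), against 1255 of 35116 promoters in all (3.57%). The kappaB consensus, to which NF-kB dimers bind, was present in 5 of the 37 (13.5%), against 5.91% of all promoters, and those members were IFIH1, OAS3, IFITM3, BST2 and XAF1. A match is a description of letters, not a site. The stretches below are of 6 members to which the comparisons return, each read along its own gene and ending before the start site. Capitals mark the ISRE core or its reverse complement, and in IFIH1 and OAS3 also a kappaB match, as said after the sequences.
IFIT3, chr10:89327832-89327897, plus strand: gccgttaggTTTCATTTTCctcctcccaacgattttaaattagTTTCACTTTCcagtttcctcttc
IFIT1, chr10:89392498-89392543, plus strand: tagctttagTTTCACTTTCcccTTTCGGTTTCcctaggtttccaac
PARP14, chr3:122680789-122680838, plus strand: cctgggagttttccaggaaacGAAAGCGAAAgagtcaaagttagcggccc
ISG20, chr15:88638926-88638976, plus strand: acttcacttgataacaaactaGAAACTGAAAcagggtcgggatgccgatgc
IFIH1, chr2:162318685-162318774, minus strand: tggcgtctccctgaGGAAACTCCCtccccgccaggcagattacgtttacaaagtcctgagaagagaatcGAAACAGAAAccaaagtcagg
OAS3, chr12:112938324-112938473, plus strand: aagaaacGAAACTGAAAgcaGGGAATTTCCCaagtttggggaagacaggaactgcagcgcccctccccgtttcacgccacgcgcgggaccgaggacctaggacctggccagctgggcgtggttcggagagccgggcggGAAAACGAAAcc
IFIH1 carries the kappaB match in its first capitals and an ISRE core in its last, with more cores farther upstream. OAS3 carries a kappaB match in its middle capitals, read on both strands, with an ISRE core on either side.

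**Figure D1:**
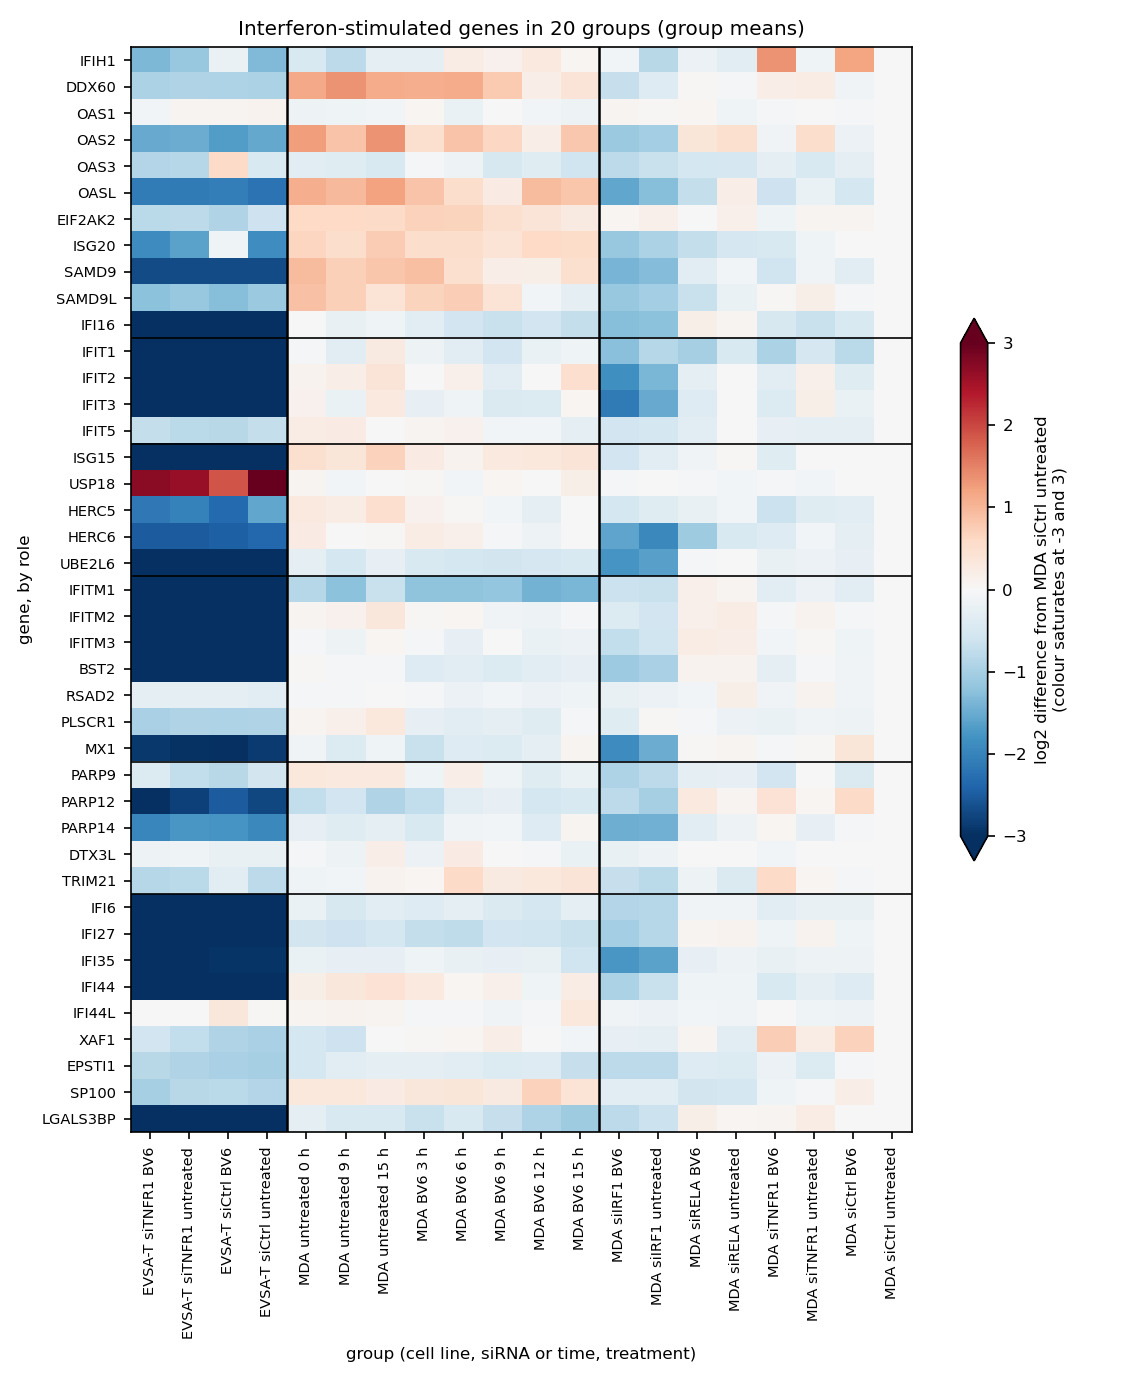
Group means of the 41 measured members as log2 differences from siCtrl untreated MDA-MB-231, with genes in rows by role and the 20 groups in columns; colour saturates at -3 and 3. The EVSA-T columns are dark blue for most genes and red for USP18, and the siIRF1 columns are blue for most genes.

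The first comparison asks which members depend on IRF1 in MDA-MB-231. Most of them were lower when IRF1 was silenced, also in cells that had not been given BV6. In untreated cells 30 of the 38 members that passed the filter fell with siIRF1 and 0 rose, where 12.4% of 9561 genes fell and 9.35% rose. The median difference over the 38 was -0.82 log2, against 0.00 over all genes tested. With BV6 the counts were 27 lower and 0 higher, where 12.8% of all genes fell and 9.37% rose, and the median was -0.77 log2. Fewer transcripts per cell and fewer expressing cells cannot be told apart in such bulk RNA. Of the 38, 28 were detected in both groups of untreated cells and 22 of those 28 fell. With BV6, 26 were detected in both groups and 21 of those fell, while 12 were not detected with siIRF1. EPSTI1 and PARP9, counted among the 27, were detected in neither BV6 group.

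The members were grouped in 6 roles, and each held members that fell. All 4 members of the IFIT family fell in untreated cells, with a median of -1.11 log2. Some IFIT proteins bind viral RNA that lacks a host cap. IFIT3 read 8.35, 8.32 and 8.25 log2 on the siIRF1 arrays and 10.35, 9.73 and 9.42 on the siCtrl arrays, a difference of -1.52 ± 0.20 (adjusted p = 6.1e-06). Under BV6 its arrays read 7.79, 7.76 and 7.60 with siIRF1 and 9.81, 9.68 and 9.41 with siCtrl, a difference of -1.91 ± 0.20. Its groups did not overlap, and the other 2 probes of IFIT3 gave -1.59 and -1.26 untreated. Here and below, overlap of arrays is described for members picked by their differences. It was not counted over all genes and adds no support to a call. IFIT2 read 9.16, 9.07 and 8.47 with siIRF1 and 10.37, 10.33 and 10.11 with siCtrl in untreated cells, a difference of -1.37 ± 0.22. With BV6 it read 8.89, 8.37 and 8.04 with siIRF1 and 10.08, 10.03 and 9.62 with siCtrl, a difference of -1.47 ± 0.22. IFIT1, whose promoter stretch holds adjoining cores, fell in both states (-0.85 ± 0.15 untreated, -0.46 ± 0.15 with BV6), and IFIT5, detected on no siIRF1 array and on 2 siCtrl arrays, was at least 1.45-fold lower untreated and did not pass the test with BV6 (-0.29 ± 0.14, adjusted p = 0.146).

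In the ISG15 pathway, 3 of the 4 genes tested fell in each state. HERC6, a ligase of the HERC family, had low and tight values with siIRF1, at 6.05, 6.08 and 6.03 log2 in untreated cells, against 7.98, 7.87 and 8.12 with siCtrl, a difference of -1.94 ± 0.19 (adjusted p = 6.85e-08). In cells given BV6 it read 6.42, 6.69 and 6.09 with siIRF1 and 7.66, 7.57 and 7.90 with siCtrl, a difference of -1.31 ± 0.19. UBE2L6, the enzyme that carries ISG15 to its ligases, read 9.22, 8.81 and 9.19 with siIRF1 and 10.68, 10.75 and 10.69 with siCtrl, a difference of -1.64 ± 0.14. After BV6 the values were 8.96, 8.97 and 8.90 with siIRF1 and 10.50, 10.38 and 10.53 with siCtrl, a difference of -1.53 ± 0.14. None of these 4 pairs of groups overlapped, and a further probe of UBE2L6 gave -1.69 untreated. Another UBE2L6 probe, detected on 1 array, gave -0.08. ISG15 differed by -0.32 ± 0.14 untreated (adjusted p = 0.112) and fell with BV6 (-0.58 ± 0.14). HERC5, the main human ISG15 ligase, fell untreated (-0.37 ± 0.11) and gave -0.21 ± 0.11 with BV6 (adjusted p = 0.202). The promoters of HERC6 and UBE2L6 held no ISRE core in the stretch searched.

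Among genes that act on membranes and virus entry, 5 of 7 tested fell untreated and 4 with BV6. MX1, a dynamin-like GTPase that traps influenza virus components, read 6.95, 7.19 and 6.55 log2 with siIRF1 and 8.81, 8.62 and 7.74 with siCtrl in untreated cells, a difference of -1.49 ± 0.22. Under BV6 its arrays read 6.68, 6.33 and 6.50 with siIRF1, where no array detected it, and 8.99, 8.44 and 8.82 with siCtrl, which is at least 4.75-fold lower (adjusted p = 4.8e-08). The MX1 groups did not overlap in either state. BST2, also called tetherin, which holds budding virus at the cell surface, fell in both states (-0.97 ± 0.11 untreated, -0.98 ± 0.11 with BV6). IFITM2 and IFITM3, which hinder fusion of enveloped viruses, fell too, with -0.56 ± 0.13 and -0.59 ± 0.14 untreated. IFITM1 fell untreated (-0.67 ± 0.17) and gave -0.30 ± 0.17 with BV6 (adjusted p = 0.241).

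Of 10 tested sensors and nucleic acid enzymes, 8 fell untreated and 7 with BV6. SAMD9, which restricts poxviruses, read 6.34, 6.71 and 6.77 log2 with siIRF1 and 8.09, 8.02 and 7.62 with siCtrl untreated, a difference of -1.30 ± 0.22. With BV6 it read 6.84, 6.67 and 6.02 with siIRF1 and 7.78, 7.38 and 7.63 with siCtrl, a difference of -1.09 ± 0.22. The siIRF1 arrays lay below all siCtrl arrays in both states. OASL, a relative of the oligoadenylate synthetases that lacks their activity, was detected on no siIRF1 array and was at least 2.41-fold lower untreated and at least 2.02-fold lower with BV6, where 2 siCtrl arrays detected it. EIF2AK2, the kinase PKR that shuts down translation, did not follow: it read 9.30, 9.25 and 9.11 with siIRF1 and 9.19, 9.01 and 9.04 with siCtrl, a difference of 0.14 ± 0.14 (adjusted p = 0.522).

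Of the PARP genes and ubiquitin ligases, all 4 tested fell untreated and 3 with BV6. PARP14, an ADP-ribosyltransferase, was detected on no siIRF1 array. It read 6.04, 5.77 and 5.55 log2 with siIRF1 and 7.33, 7.28 and 7.08 with siCtrl untreated, at least 2.73-fold lower (adjusted p = 1.52e-06). In cells given BV6 it read 6.11, 5.60 and 5.61 with siIRF1 and 7.42, 7.17 and 6.91 with siCtrl, 2 of them detected, at least 2.64-fold lower. PARP14 is one of the promoters shown, with its core close to the start. IFI35, a leucine zipper protein, headed the remaining genes, of which 6 of 9 fell untreated. It read 7.34, 7.31 and 7.77 with siIRF1 and 9.16, 8.99 and 9.09 with siCtrl untreated, a difference of -1.61 ± 0.15. After BV6 the values were 7.54, 6.99 and 7.46 with siIRF1 and 8.99, 8.84 and 8.93 with siCtrl, a difference of -1.59 ± 0.15. The IFI35 groups stood more than 1 log2 apart. Probes of a gene did not always match: IFI6 gave -0.86 untreated on its brightest probe and -0.25 on another, detected on 28 arrays.

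**Figure D2:**
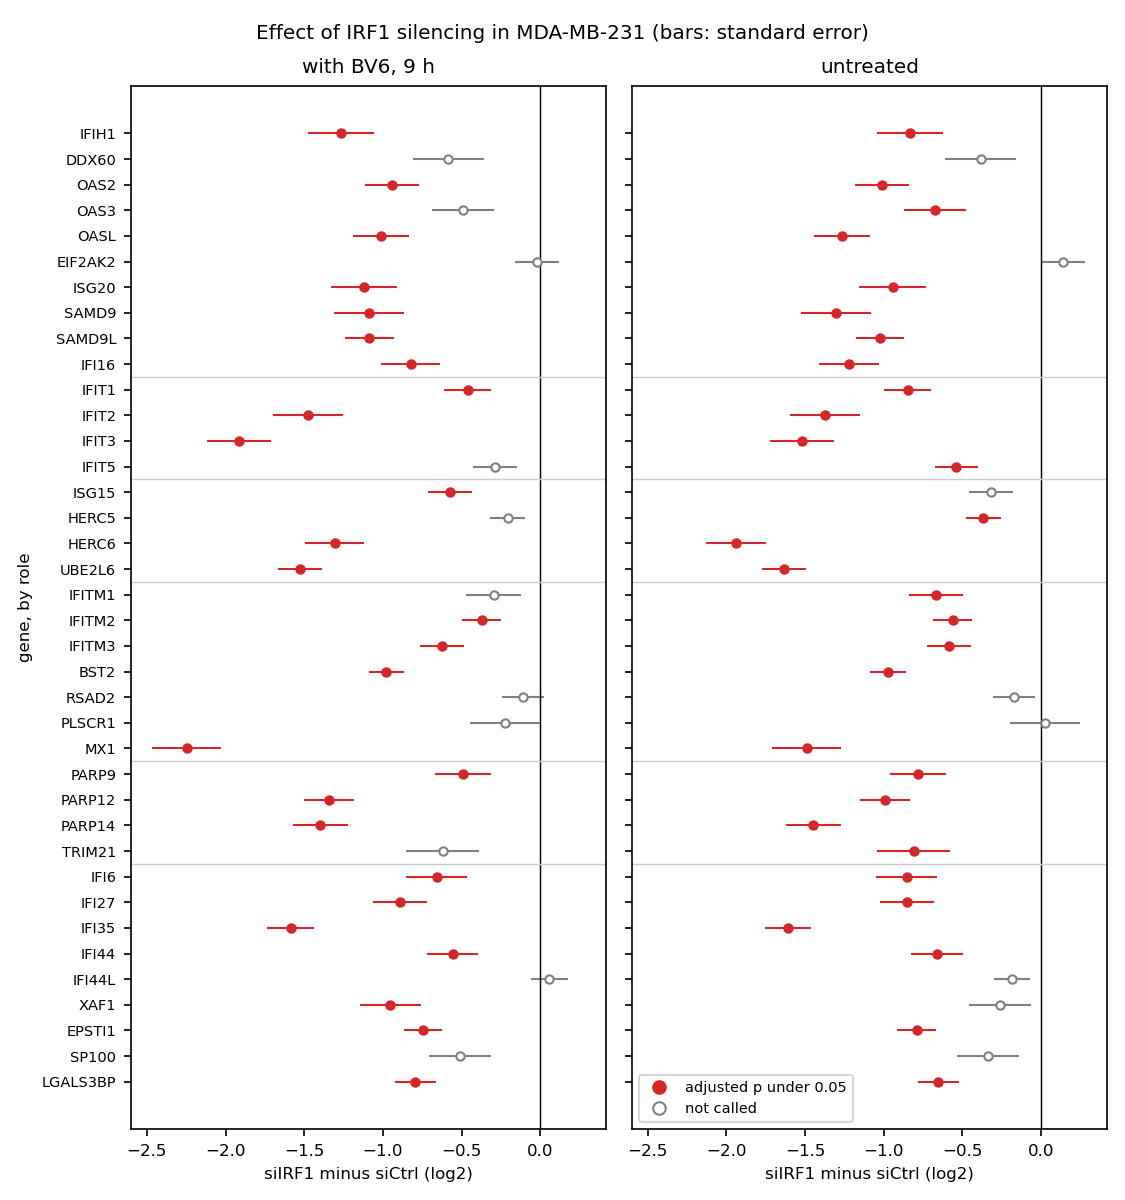
Difference between siIRF1 and siCtrl in MDA-MB-231 for the 38 members tested, with BV6 (left) and untreated (right), on a log2 axis; points are fitted means, bars standard errors, and red points passed an adjusted p under 0.05. With BV6 27 points are red and in untreated cells 30, and each red point lies below 0.

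Most members that fell did so in both states. Of the 30 lower in untreated cells, 25 (83.3%) were also lower with BV6, which is 92.6% of the 27. The same overlap was not counted over all genes, so it cannot be read as particular to the members. HERC5, IFIT5, IFITM1, OAS3 and TRIM21 passed only untreated, ISG15 and XAF1 only with BV6, and DDX60, EIF2AK2, IFI44L, PLSCR1, RSAD2 and SP100 passed in neither. The difference between the BV6 responses in siIRF1 and siCtrl cells was called for 0 of 38 members by limma, where 0.167% of all genes were called lower and 0.0105% higher. An unadjusted p under 0.05 was reached by 3 members and by 443 of 9561 genes. The ISRE core was present in 20 of 26 promoters of members that fell untreated and in 5 of 8 of those that were not called. Within slide 1 alone 19 members fell untreated and 18 with BV6, and within slide 2 alone 18 and 14, while with slide as a block 30 and 28 fell. Each state had 1 siIRF1 array and 2 siCtrl arrays on slide 1, and 2 siIRF1 arrays and 1 siCtrl array on slide 2. The lone array was assumed to vary like those of the other groups on its slide.

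Genes upstream of the members were read from a separate list of 35 interferon signalling genes, of which 20 were tested here. In untreated siIRF1 cells 4 were lower, where 12.4% of all genes were, and 2 higher, where 9.35% were. IRF9, which joins STAT proteins to bind the ISRE, fell (-0.87 ± 0.12 log2), as did STING1, the adaptor of DNA sensing (-0.91 ± 0.18), IFNAR1, a chain of the type I interferon receptor (-0.80 ± 0.19), and IL10RB. CGAS, the sensor upstream of STING1, rose by 0.99 ± 0.20, and MAVS, the adaptor of RNA sensing, by 0.72 ± 0.22. With BV6 6 were lower, where 12.8% of all genes were, and 2 higher, where 9.37% were, with IRF9 at -0.63 ± 0.12, STING1 at -1.08 ± 0.18 and CGAS at 0.87 ± 0.20. In the leukocyte list, 2 of 8 genes were measured, CD14 and CD68, and both were lower with siIRF1 in both states. CD14 averaged 5.75 ± 0.04 log2 with siIRF1 and 6.68 ± 0.08 with siCtrl untreated, and CD68 10.10 ± 0.09 with siIRF1 and 10.92 ± 0.13 with siCtrl (SD, n = 3 each). Of the luminal list KRT19, KRT8 and SPDEF, 3 of 6 tested, were lower with siIRF1 untreated, and KRT19 and SPDEF with BV6. Of the mesenchymal list CD44, 1 of 5 tested, was lower in both states. The part of these markers in the result was not tested.

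**Figure D3:**
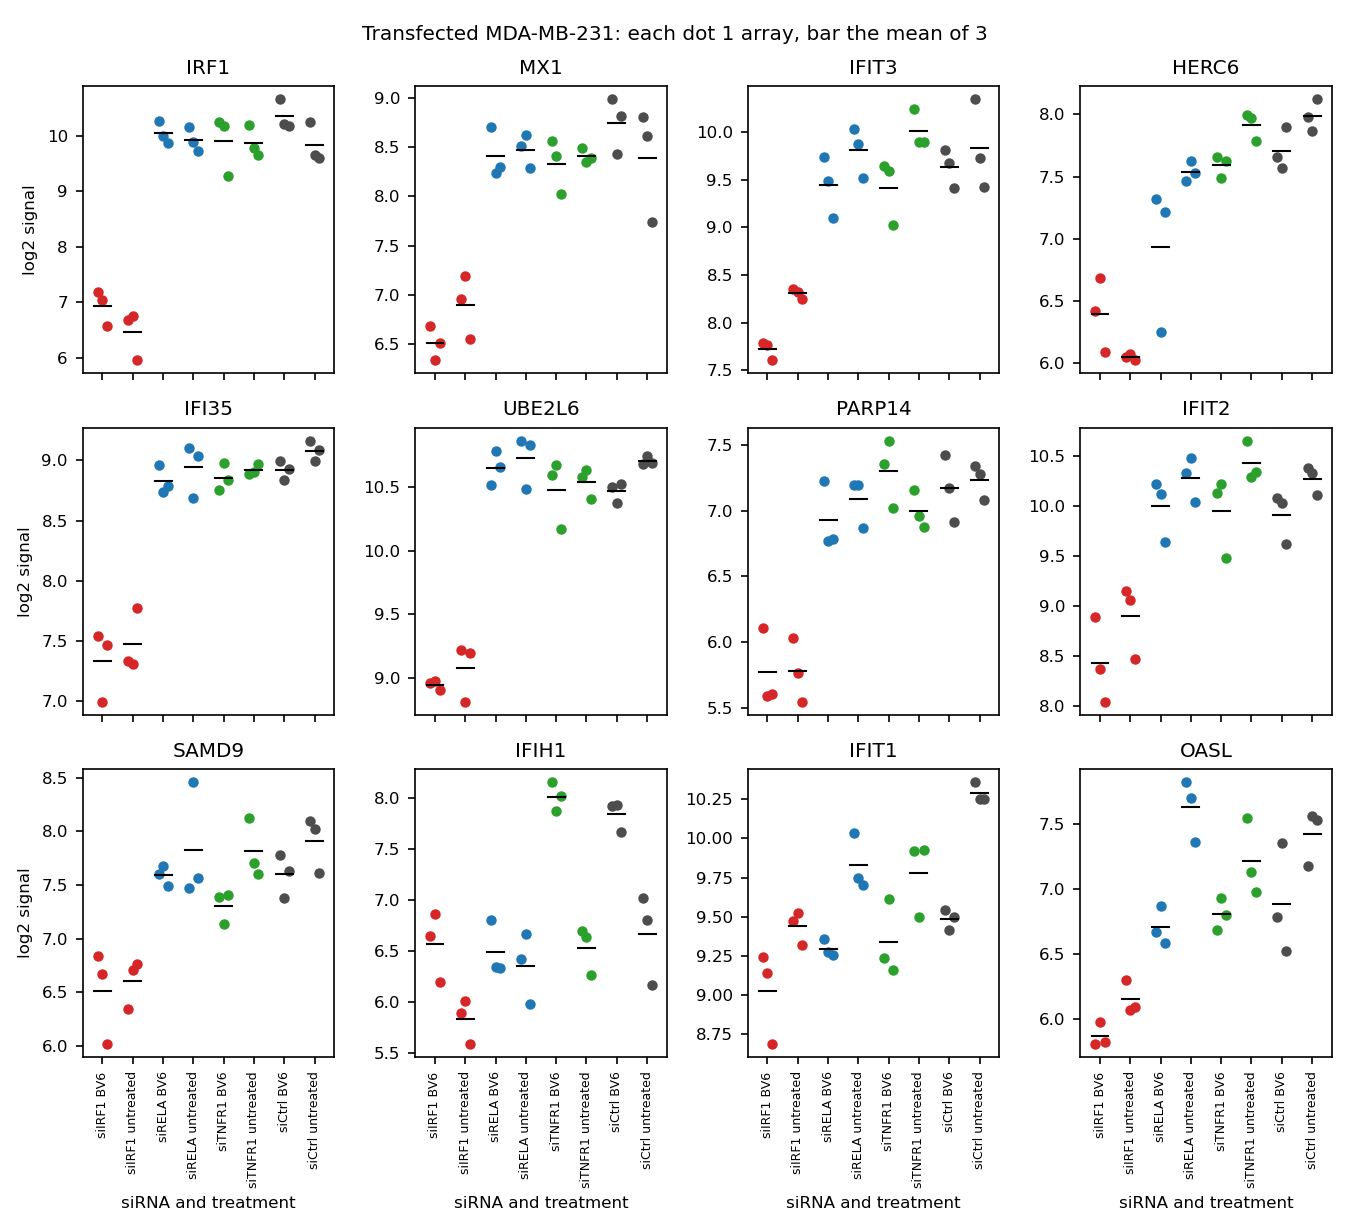
Log2 signal of IRF1, the 8 members with the largest siIRF1 differences, and IFIH1, IFIT1 and OASL on each array of transfected MDA-MB-231 cells; dots are arrays and bars means of 3. The siIRF1 arrays (red) lie below the siCtrl arrays (grey) in most panels, and IFIH1 is high in the BV6 groups of siTNFR1 and siCtrl.

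Silencing RELA called 3 members in untreated cells and 10 with BV6. In untreated cells EPSTI1 and IFIT1 were lower, where 10.0% of all genes were, and OAS2 was higher, where 11.2% were, which is 3 of 38. IFIT1 read 10.03, 9.75 and 9.70 log2 with siRELA and 10.36, 10.25 and 10.25 with siCtrl, a difference of -0.46 ± 0.15 (adjusted p = 0.0301). EPSTI1 read 5.71, 5.99 and 5.60 with siRELA and 6.24, 6.07 and 6.18 with siCtrl, at least 1.32-fold lower, since no siRELA array and 2 siCtrl arrays detected it. OAS2 read 7.26, 7.64 and 7.42 with siRELA and 6.97, 7.08 and 6.85 with siCtrl, a rise of 0.47 ± 0.17 (adjusted p = 0.0477). The groups did not overlap for any of these genes, but the calls are thin. Leaving out siCtrl replicate 3 left 0 calls, and leaving out siCtrl replicate 1 or siRELA replicate 2 or 3 left 1.

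With BV6, 7 of 38 members were lower with siRELA, where 9.49% of all genes were, and 3 were higher, where 9.82% were. Of the 38, 30 were detected in both groups, and of those 3 were lower and 3 higher. The other 4 lower members were detected on no siRELA array with BV6. IFIH1, which encodes the double-stranded RNA sensor MDA5, showed the largest difference of the 38. It read 6.81, 6.34 and 6.33 log2 with siRELA, detected on no array, and 7.92, 7.93 and 7.67 with siCtrl, at least 2.54-fold lower (adjusted p = 4.94e-05). With siIRF1 it read 6.65, 6.87 and 6.20 with BV6, a difference of -1.27 ± 0.21 against the same siCtrl arrays. HERC6 read 7.32, 6.26 and 7.22 with siRELA and 7.66, 7.57 and 7.90 with siCtrl, a difference of -0.78 ± 0.19, and its replicate 2 lay far below the others. SP100, a nuclear body protein, read 5.63, 5.82 and 6.00 with siRELA, detected on no array, and 6.85, 6.76 and 6.13 with siCtrl, at least 1.70-fold lower with 2 siCtrl arrays detected. ISG20, an RNA exonuclease, read 8.03, 8.03 and 8.08 with siRELA and 8.80, 8.49 and 8.99 with siCtrl, a difference of -0.71 ± 0.21. SAMD9L, XAF1 and EPSTI1 were also lower, and IFI16 (0.61 ± 0.19), OAS2 (0.54 ± 0.17) and IFITM1 (0.51 ± 0.17) were higher. No array of either group detected EPSTI1, so its difference lies between background signals. Within slide 1, with 2 arrays of each, 4 members were called. Slide 2 held 1 siRELA and 1 siCtrl array of this state, so the 0 calls there say little. Leaving out replicate 3 of siCtrl or of siRELA left 5 calls, and leaving out siCtrl replicate 1 left 6. IRF1 itself did not pass the test with siRELA and BV6 (-0.31 ± 0.25, adjusted p = 0.444).

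Silencing TNFR1 in MDA-MB-231 called 0 of 38 members in limma, untreated and with BV6, where 2.41% and 2.67% of all genes rose and 0.931% and 2.37% fell. An unadjusted p under 0.05 was reached by 7 members and 1504 of 9561 genes in untreated cells. With BV6 it was reached by 4 members and 1829 genes. TNFRSF1A, the gene of the receptor, was below detection with siTNFR1 on every array, and so at least 4.20 log2 lower untreated and 4.09 log2 lower with BV6. Medians over the members were -0.06 and -0.04 log2, and the largest single differences untreated were those of IFI16 (-0.66 ± 0.19, adjusted p = 0.0529), which is a DNA sensor, OAS2 (0.53 ± 0.17, adjusted p = 0.0926) and IFIT1 (-0.50 ± 0.15, adjusted p = 0.0629). OAS2 differed in the opposite direction to IFI16 and IFIT1.

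BV6 itself changed 2 members in siCtrl cells, in opposite directions, where 1.72% of all genes rose and 0.753% fell. IFIH1 read 7.92, 7.93 and 7.67 log2 with BV6 and 7.02, 6.81 and 6.17 untreated, a rise of 1.18 ± 0.21 (adjusted p = 0.00137). IFIT1 read 9.55, 9.41 and 9.50 with BV6 and 10.36, 10.25 and 10.25 untreated, a difference of -0.80 ± 0.15 (adjusted p = 0.00217). In both, the groups did not overlap. With the replicate number as a block, which the arrays of this comparison allow, 4 members were called: XAF1 (0.70 ± 0.19, adjusted p = 0.0321), an antagonist of the IAP protein XIAP, and PARP12 (0.57 ± 0.14) rose as well. The share of all genes called with this block is not given here, so the count is a description. IRF1 differed by 0.52 ± 0.25 with BV6 in these cells (adjusted p = 0.329).

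IFIH1 was followed through the other siRNAs. With siTNFR1 it read 8.15, 7.87 and 8.02 log2 with BV6 and 6.70, 6.64 and 6.26 untreated, a rise of 1.48 ± 0.21 (adjusted p = 0.000123), the sole member called there, where 0.910% of all genes rose and 0.429% fell. With siIRF1 it read 6.65, 6.87 and 6.20 with BV6 and 5.89, 6.01 and 5.59 untreated, a difference of 0.74 ± 0.21 (adjusted p = 0.129). No member was called with siIRF1, where 0.617% of all genes rose and 0.293% fell. An unadjusted limma p under 0.05 was reached by 4 of 38 members and by 828 of 9561 genes. With the replicate block IFIH1 rose (adjusted p = 0.00899) and IFIT3 fell (-0.59 ± 0.13). With siRELA IFIH1 read 6.81, 6.34 and 6.33 with BV6 and 6.43, 6.66 and 5.98 untreated, groups that overlapped, with a difference of 0.14 ± 0.21. The BV6 response of IFIH1 in siRELA cells minus that in siCtrl cells was -1.04 ± 0.30 log2, with an unadjusted p of 0.00186 and an adjusted p of 0.55, so a difference between these responses was not called. In that interaction 0 of 38 members were called by limma, where 0.0418% of all genes were called lower and 0% higher. In that of siTNFR1 also 0 were called, where 0.0105% were lower and 0% higher. An unadjusted p under 0.05 was reached by 1 member in each, and by 507 of 9561 genes with siRELA and 616 with siTNFR1. In siRELA cells OASL was the member that changed, where 0.282% of all genes rose and 0.0105% fell. It read 6.67, 6.86 and 6.58 with BV6 and 7.82, 7.70 and 7.36 untreated, a difference of -0.92 ± 0.18 (adjusted p = 0.0127) that missed the threshold without replicate 1 or 3 of the BV6 arrays or replicate 1 or 2 of the untreated ones.

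The untransfected cells show the course over time after BV6. At 3, 6 and 9 h 0 of 38 members were called by limma, where 0.277%, 0.441% and 0.965% of all genes rose and 0.113%, 0.0821% and 0.267% fell. An unadjusted p under 0.05 was reached by 1, 6 and 12 members, and by 1078, 756 and 1102 of 9742 genes. At 12 h HERC5 and LGALS3BP were lower, where 1.70% of all genes were lower and 2.60% higher, and at 15 h LGALS3BP alone, where 3.19% were lower and 3.95% higher. LGALS3BP is a secreted glycoprotein that binds galectins. It read 9.37 and 9.58 log2 with BV6 at 3 h, 9.61 and 9.75 at 6 h, 9.48 and 9.45 at 9 h, 9.11 and 9.34 at 12 h and 9.03 and 9.15 at 15 h, against 9.85 and 9.88 untreated at 0 h, 9.68 and 9.71 at 9 h and 9.78 and 9.60 at 15 h. The arrays of 12 and 15 h lay below every untreated array, with differences of -0.53 ± 0.13 and -0.66 ± 0.13 (adjusted p = 0.0304 and 0.00491). HERC5 read 9.81 and 10.21 with BV6 at 12 h, against 10.70 and 10.50 untreated at 0 h, 10.60 and 10.41 at 9 h and 10.87 and 10.71 at 15 h, a difference of -0.62 ± 0.16 (adjusted p = 0.0442). Leaving out any 1 array of the 12 h comparison gave 0 or 1 calls: HERC5 was still called only without BV6 replicate 2 and LGALS3BP only without untreated replicate 2 of 15 h, while without untreated replicate 1 of 0 h or of 15 h the 1 call was of another member, which was higher. LGALS3BP was not called at 15 h without BV6 replicate 1.

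IFIH1 lay higher with BV6 in this experiment too, without passing the test. It read 6.39 and 6.43 log2 with BV6 at 3 h, 6.87 and 6.92 at 6 h, 6.91 and 6.69 at 9 h, 7.22 and 6.69 at 12 h and 7.05 and 6.39 at 15 h, against 6.62 and 5.82 untreated at 0 h, 6.05 and 5.73 at 9 h and 6.70 and 6.04 at 15 h. Only the 6 h arrays both lay above every untreated array. The difference at 12 h was 0.80 ± 0.24 (adjusted p = 0.0735). Same-numbered arrays deviated together at 6 to 15 h, and a fit blocked on that number called 0, 3, 8 and 5 members at 6, 9, 12 and 15 h. The share of all genes called in this blocked fit is not given here, so the counts cannot be read as particular to the members. In the blocked fit IFIH1 rose at 12 h with an adjusted p of 0.00991 and later, at 15 h, with 0.0447, while OASL, SAMD9 and IFIT2 fell at 9 h. At 12 h DDX60, an RNA helicase, fell (-1.01 ± 0.18, adjusted p = 0.00296), as did OAS2 (-0.95 ± 0.22) and SAMD9L (-0.74 ± 0.19). These comparisons share their untreated arrays. Between untreated cells of 15 and 0 h 0 members were called, where 0% of all genes were called. An unadjusted limma p under 0.05 was reached by 1 of 38 members and by 279 of 9742 genes.

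**Figure D4:**
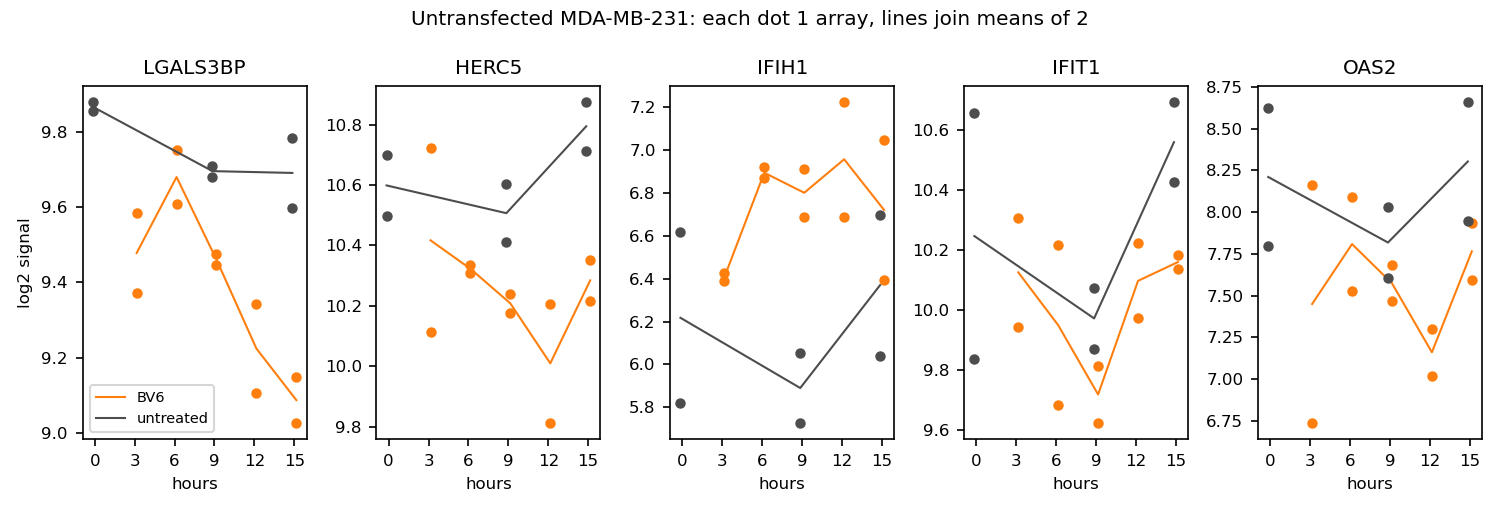
Log2 signal of 5 members in untransfected MDA-MB-231 against hours, with BV6 (orange) and untreated (grey); dots are arrays and lines join means of 2. LGALS3BP with BV6 falls to 9.03 and 9.15 at 15 h, and IFIH1 with BV6 lies at 6.69 or above from 6 to 12 h.

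Most of this gene set was not detected in EVSA-T cells. Between 31 and 35 of the 41 measured members were detected on no array of an EVSA-T group, against 3 to 15 in the groups of MDA-MB-231. Among 40 members tested between siCtrl untreated cells of both lines, 36 were lower in EVSA-T, where 30.1% of all genes were, and 1 was higher, where 33.4% were. Most of these passed the filter through MDA-MB-231, so the count is a description, and 9 were detected in both groups, 7 of them lower. Cell line, slide and experiment cannot be told apart. IFITM3 read 5.75 and 5.80 log2 in EVSA-T and 12.31, 12.31 and 12.17 in MDA-MB-231, at least 89.8-fold lower. IFITM2 read 5.86 and 5.75 in EVSA-T and 12.40, 12.07 and 12.31 in MDA-MB-231, at least 87.5-fold lower. ISG15 read 5.54 and 5.43 in EVSA-T and 11.45, 11.47 and 11.65 in MDA-MB-231, at least 65.9-fold lower. IFI27, a mitochondrial protein, read 5.30 and 5.29 in EVSA-T and 10.90, 10.67 and 10.79 in MDA-MB-231, at least 42.9-fold lower. These transcripts were near background in EVSA-T and bright in MDA-MB-231.

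USP18 ran the other way. This protease strips ISG15 from proteins and damps signalling of the type I interferon receptor. It read 8.12 and 8.68 log2 in EVSA-T and 5.31, 5.47 and 5.40 in MDA-MB-231, at least 8.03-fold higher. It passed the filter through EVSA-T, so this too is a description. It was detected on all 8 EVSA-T arrays and on 0 of 40 MDA-MB-231 arrays, and its lowest EVSA-T level, 7.19, lay above its highest MDA-MB-231 level, 5.63. EIF2AK2 and HERC5 were the other members detected on all 8 EVSA-T arrays. Of 22 signalling genes tested 11 were lower in EVSA-T, where 30.1% of all genes were. Among them were CGAS (-2.44 ± 0.23 log2), IRF9 (-2.20 ± 0.21), STING1 (-1.98 ± 0.18) and IRF7 (-1.56 ± 0.21), an inducer of interferon genes. IFNGR1, a chain of the interferon-gamma receptor, was higher by 0.73 ± 0.21. Of the 25 signalling genes measured, 7 were detected on no EVSA-T array. Some therefore passed the filter through MDA-MB-231, so the count is a description. Background limits the differences of genes not detected in EVSA-T.

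In EVSA-T, BV6 raised IRF1, while most of the members stayed undetected. IRF1 read 10.96 and 10.57 log2 with BV6 and 5.37 and 5.45 untreated in siCtrl cells, where no untreated array detected it, at least 40.9-fold higher (adjusted p = 1.29e-05). IRF1 passed the filter in EVSA-T through the cells given BV6, where it was high, so its comparisons there are a description. In each of the siCtrl groups, with BV6 and untreated, 31 of the 41 measured members were detected on no array. Of the 11 tested 2 rose, where 6.90% of all genes did, and 2 fell, where 4.54% did. ISG20 read 8.54 and 8.72 with BV6 and 7.01 and 6.81 untreated, a rise of 1.72 ± 0.18 (adjusted p = 0.000131). OAS3, an oligoadenylate synthetase that activates RNase L, read 7.01 and 7.08 with BV6 and 6.03 and 5.98 untreated, a rise of 1.05 ± 0.17 (adjusted p = 0.00323). OAS3 was detected on 2 of these BV6 arrays, on 1 untreated array and on no siTNFR1 array of EVSA-T. It passed the filter through the group where it was high, so its calls in EVSA-T are a description. Its other probe, detected on no array, gave -0.11 with BV6. IFIT1 read 5.51 and 5.41 with BV6, against 5.28 and 5.34 untreated, detected on no array. IFIH1 read 6.71 and 6.22 with BV6 and 5.44 and 5.25 untreated, but only 1 EVSA-T array detected it, so it was not tested.

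USP18 and HERC5 fell. USP18 read 7.36 and 7.19 log2 with BV6 and 8.12 and 8.68 untreated, a difference of -1.13 ± 0.22 (adjusted p = 0.00758). HERC5 read 8.01 and 7.92 with BV6 and 8.90 and 8.57 untreated, a difference of -0.77 ± 0.21 (adjusted p = 0.041). HERC5 was not called without any 1 of the 4 arrays, and USP18 was not called without untreated replicate 2 or BV6 replicate 2. Of 17 signalling genes 6 rose, where 6.90% of all genes did, and 0 fell, where 4.54% did: IKBKE, a kinase that activates IRF factors, by 2.88 ± 0.17 log2, the interferon-gamma receptor chains IFNGR1 by 2.70 ± 0.26 and IFNGR2 by 2.11 ± 0.20, TICAM1, an adaptor of Toll-like receptors, by 2.14 ± 0.32, and IFNAR1 and TBK1 by less than 1 log2.

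With TNFR1 silenced in EVSA-T, limma called 0 of 11 members between BV6 and untreated cells, where 0.109% of all genes rose and 0% fell. An unadjusted p under 0.05 was reached by 0 members and by 286 of 8278 genes. IRF1 read 8.65 and 7.04 log2 with BV6 and 5.25 and 5.32 untreated in these cells, where 1 BV6 array detected it, at least 5.71-fold higher but not past the threshold (adjusted p = 0.0542). Among cells given BV6, ISG20 read 6.91 and 6.88 with siTNFR1 and 8.54 and 8.72 with siCtrl, a difference of -1.74 ± 0.18, and OAS3 read 5.68 and 5.50 with siTNFR1, detected on no array, and 7.01 and 7.08 with siCtrl, at least 2.74-fold lower, where 6.73% of all genes were lower. USP18 was higher with siTNFR1, at 8.01 and 8.21 against 7.36 and 7.19 with siCtrl, a rise of 0.84 ± 0.22 (adjusted p = 0.0343), where 4.06% were higher. In these genes siTNFR1 and siCtrl arrays did not overlap, but USP18 was not called when any 1 of the 4 arrays was left out.

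The difference between the BV6 responses was tested as an interaction. The response in siTNFR1 cells minus that in siCtrl cells was -2.00 ± 0.25 log2 for ISG20 (adjusted p = 0.00166) and -1.06 ± 0.25 for OAS3 (adjusted p = 0.0415), 2 of 11 members, where 2.95% of all genes were called lower and 0.809% higher. The OAS3 call was lost when any 1 of the 8 arrays was left out. OAS3 also passed the filter through the siCtrl arrays with BV6, so its interaction is a description. For USP18 the interaction was 1.23 ± 0.31 (adjusted p = 0.0589), and 1.23 ± 0.30 in the fit blocked on replicate number (adjusted p = 0.0391). For IRF1 it was -2.79 ± 0.57 (adjusted p = 0.0232). IRF1 passed the filter through the arrays with BV6 and was detected on no untreated array, so its interaction is a description as well. Untreated, siTNFR1 and siCtrl cells differed in 0 of 11 members, where 0.0121% of all genes rose and 0.0242% fell. An unadjusted limma p under 0.05 was reached by 2 members and by 592 of 8278 genes. TNFRSF1A was at least 6.63-fold lower with siTNFR1 untreated and at least 9.02-fold lower with BV6.

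**Figure D5:**
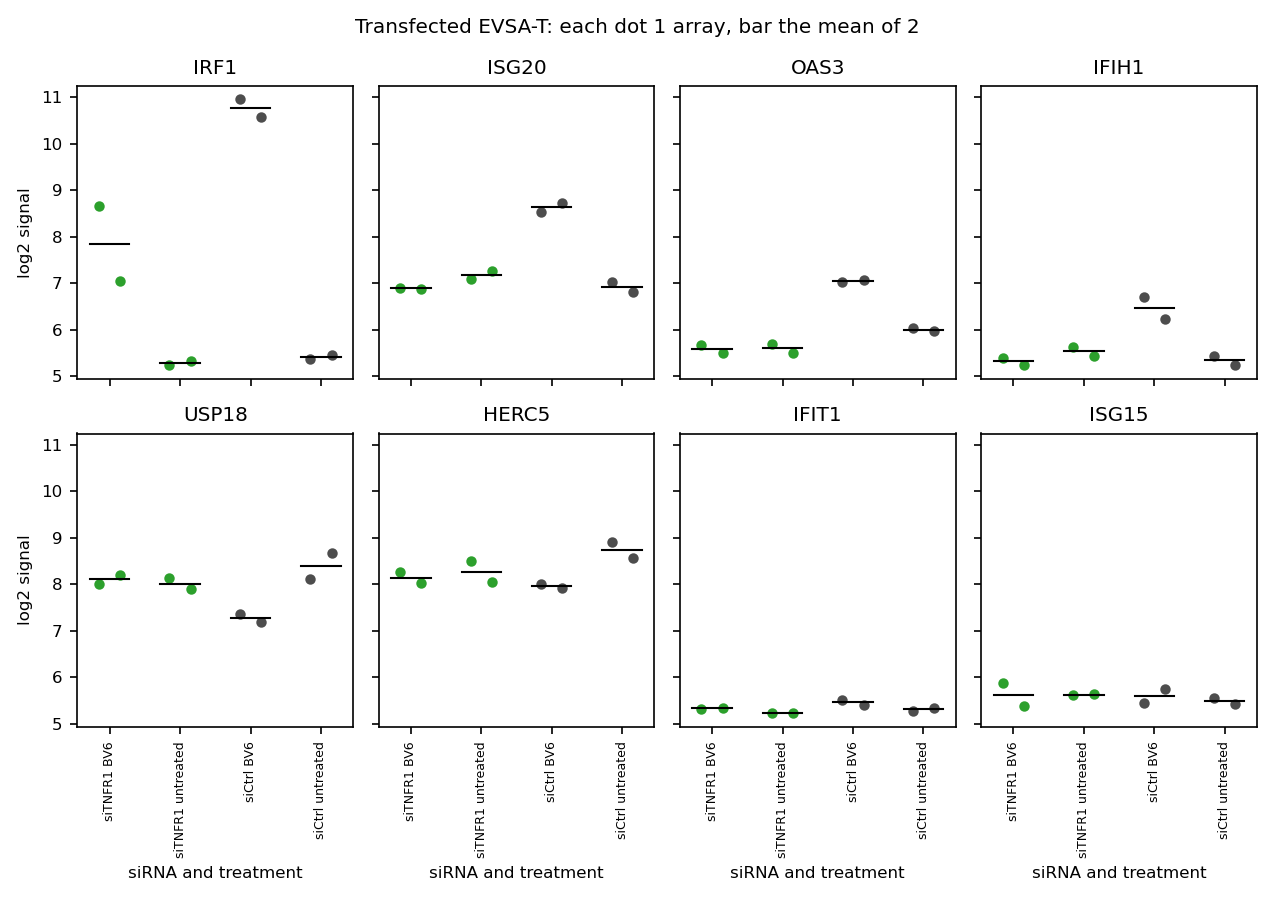
Log2 signal of IRF1 and 7 members on each EVSA-T array; dots are arrays and bars means of 2. ISG20 and OAS3 stand out in siCtrl cells with BV6, at 8.54 and 8.72 and at 7.01 and 7.08, while IFIT1 and ISG15 stay below 6.

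Transfected and untransfected MDA-MB-231 cells also differed, although transfection and slide cannot be told apart here. Between siCtrl untreated and untransfected untreated cells of 9 h, 5 of 40 members were higher, where 5.01% of all genes were, and 4 were lower, where 7.34% were. DDX60 read 6.01, 6.36 and 6.20 log2 with siCtrl and 7.94 and 7.15 untransfected, a difference of -1.35 ± 0.33. IFITM1 read 8.55, 8.06 and 8.60 with siCtrl and 7.32 and 7.01 untransfected, a rise of 1.24 ± 0.30. OASL read 7.17, 7.56 and 7.53 with siCtrl and 8.86 and 7.93 untransfected, a difference of -0.97 ± 0.31, and OAS2 read 6.97, 7.08 and 6.85 with siCtrl and 8.03 and 7.61 untransfected, a difference of -0.85 ± 0.28. The groups did not overlap for these genes, which were picked by their called differences, and the untransfected arrays of DDX60 and OASL lay far apart. IFIH1, IFI27, PARP12 and LGALS3BP were higher and EIF2AK2 lower. Between 1 and 6 members were called when 1 array was left out, with 1 without untransfected replicate 1, 3 without untransfected replicate 2, and 4 and 5 without siCtrl replicates 2 and 1.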

How the data were processed

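Illumina HumanHT-12 bead arrays were hybridised with RNA of 48 samples, in 20 groups. The authors deposited a table of signals and detection p-values per probe and array. Its log2 signals, between 5.47 and 14.9, are named as not normalized per the labels, and the sources used here do not give the software that made them. A series matrix the authors deposited holds normalized log2 values of the same arrays and served as an alternative. Of 48107 probes, 30112 carried 1 gene symbol, 8 several and 17984 none, per the platform annotation, and 3 were dropped for a missing value.

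The signals were background-corrected and quantile-normalized over all 48 arrays with neqc (offset 16, background inferred from the detection p-values). Each gene was read from its brightest probe. A gene was tested in an experiment when detected on at least 3 (siRNA) or 2 (other) arrays. limma 3.58.1 in R 4.3.3 fitted 1 coefficient per group in each experiment with a shared spread. Tests were two-sided, Benjamini-Hochberg adjustment ran over all genes tested, and a gene was called at an adjusted p under 0.05. Values of every array are given for the 8 members with the largest mean absolute siIRF1 difference and for up to 4 called members in each other comparison; other members named with array values (IFIH1 outside its calls, EIF2AK2, IFIT1 in EVSA-T) were chosen after their values were seen. The precision is limited by the number of arrays per group. The members and gene lists were chosen with earlier results of these data known. The fits were tested on simulated data.

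Same-numbered arrays were taken as paired where every correlation of their deviations from the group means was over 0.1, as it was for BV6 in siCtrl (0.128 to 0.243) and in siIRF1 (0.177 to 0.315) cells, for siIRF1 and siRELA with BV6, for 6 to 15 h of BV6 and for the EVSA-T interaction (0.155 to 0.364). The pairing comes from these correlations, not from the labels; in groups of 2 arrays both numbers give the same correlation, so there it rests on fewer values.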

Additional observations from a re-analysis of the deposited data

Results flagged for a closer look

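In EVSA-T cells the BV6 response differed between siTNFR1 and siCtrl for 2 members, by the test of the difference itself. For ISG20 the response in siTNFR1 cells minus that in siCtrl cells was -2.00 ± 0.25 log2, and for OAS3 it was -1.06 ± 0.25 log2, with limma adjusted p of 0.00166 and 0.0415. The OAS3 call was lost when any 1 of the 8 arrays was left out, and also with the series matrix, with quantile normalization alone and with normalization within each experiment. The count of called members was 1 with the series matrix and with quantile normalization alone. OAS3 passed the filter through the siCtrl arrays with BV6, where it was high, so its interaction is a description.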

How the results depend on the processing

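No direction was reversed among 47 results for single members under 632 alternatives: 532 kept their side of the threshold and 100 lost it. Of 380 list medians recomputed, 365 moved by less than the spread between replicates. The counts of members called are given here against the count as reported. Shares of all genes called are not given for these alternative fits, so a higher count cannot be read as particular to the members. For siTNFR1 in untreated MDA-MB-231 cells 0 became 2 with the authors' series matrix, 2 with quantile normalization alone, 2 with no filter, 4 with the replicate block, 1 with slide as a block and 1 on slide 2 only. For siTNFR1 with BV6 0 became 1 with no filter. For BV6 in siCtrl cells 2 became 4 with the series matrix, 4 with quantile normalization alone, 4 with the replicate block, 4 with slide as a block and 0 on slide 2 only. For BV6 in siIRF1 cells 0 became 2 with the replicate block and 1 with slide as a block. For BV6 in siTNFR1 cells 1 became 2 with the replicate block and 0 on slide 1 only, and for BV6 in siRELA cells 1 became 0 on either slide. For siIRF1 untreated 30 became 19 on slide 1 only and 18 on slide 2 only, and with BV6 27 became 14 on slide 2 only. For siRELA untreated 3 became 1 on either slide, and with BV6 10 became 4 on slide 1 only and 0 on slide 2 only. After BV6 in untransfected cells, 0 at 6 h became 1 with slide as a block, and 0 at 9 h became 3 with the replicate block. At 12 h 2 became 1 with no filter, 8 with the replicate block and 0 on slide 3 only. At 15 h 1 became 3 with the series matrix, 3 with quantile normalization alone, 5 with the replicate block, 2 with slide as a block and 0 on slide 3 only. The EVSA-T interaction went to 1 with the series matrix and 1 with quantile normalization alone, against 2. Slides taken alone hold fewer arrays. On slide 1 siIRF1 and siTNFR1, and on slide 2 siCtrl and siRELA, had 1 array in each state, and on slide 3 BV6 had 1 array at 12 and at 15 h, so a slide's count says little about stability. A lone array, here or after leaving one out, was assumed to vary like the other groups. The cause of the other shifts was not tested. Same-numbered arrays were not shown to be paired for siTNFR1 untreated or BV6 in siTNFR1, and the replicate block moved no other count by over 1.5 times.

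Leaving out 1 array gave 28 to 30 calls for siIRF1 untreated and 22 to 26 with BV6, 0 to 3 for siRELA untreated and 5 to 8 with BV6, and 0 to 1 for siTNFR1 in either state. It gave 2 to 3 for BV6 in siCtrl cells, 0 to 1 in siRELA cells and 1 to 2 in siTNFR1 cells, and 0 to 2 at 3 h, 0 to 1 at 12 h and 0 to 2 at 15 h of BV6; at 12 h the 1 call was of a higher member without untreated replicate 1 of 0 h or of 15 h. In EVSA-T it gave 2 to 3 for BV6 in siCtrl cells, 2 for siTNFR1 with BV6 and 1 to 2 for the interaction. Between the lines it gave 34 to 38, and between siCtrl and untransfected cells 1 to 6, with more members lower than higher without siCtrl replicate 1 (3 against 2) or untransfected replicate 2 (3 against 0). Members dim in a group are limited by background, and their differences are bounds.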
